A study of Homo sapiens with 6 samples.

Results

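Amphiregulin and epiregulin are small growth factors that bind the epidermal growth factor (EGF) receptor. They were followed through the table rows that carried the symbols AREG, AREGB and EREG, 3 of the 1305 genes that the table held. AREG encodes amphiregulin, EREG encodes epiregulin, and AREGB is listed as amphiregulin B. RNA was sequenced from NCI-H292, an established human lung cancer cell line, after 48 hours of treatment. There were 3 libraries from cells given 50 nM mitoxantrone, which stalls type II topoisomerase on DNA, and 3 libraries from cells given the solvent DMSO at a dilution of 1 in 1000. The labels name no other agent or genetic change, give a single cell line, and do not say whether the libraries of a group came from separate cultures, so that p-values measure the spread between these libraries, which may be technical. The table listed only genes that the authors had found changed in this same contrast by at least 1.0 on the log2 scale in either direction. The authors' adjusted p-values in it, from their Wald test, were at most 0.0428. The fold changes and tests below therefore describe the members, and no member's listing, direction or passing of a test stands as independent support.

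Ligands of the EGF receptor are made as precursors that span the cell membrane. Membrane proteases, ADAM17 foremost, cut the precursors and release the active growth factor, which acts on the same cell or its neighbours. The receptor signals through adaptor proteins and the RAS and MAP kinase cascade, and the signal is damped by feedback inhibitors such as the Sprouty proteins and the dual-specificity phosphatases. Amphiregulin and epiregulin are known in airway epithelium as ligands that support growth and wound repair, and their genes are themselves induced by EGF receptor signalling.

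The deposited table placed EREG at chr4:75230860-75254468, AREG at chr4:75310851-75320726 and AREGB at chr4:75480629-75490486, all on the plus strand, on a genome build that is not given in the sources used here. The start of EREG lay 79.99 kb before that of AREG, and AREG began 169.8 kb before AREGB. GENCODE release 29, on GRCh38, holds AREG at chr4:74445134-74455009 and EREG at chr4:74365143-74388751, with the same spans of 9876 and 23609 bases and the same spacing. The table's lengths of 1648 bases for AREG and 5717 for EREG equalled the union of all exons of these genes in that annotation, which also takes in exons of transcripts with retained introns. The longest coding transcripts were shorter, at 1240 bases in 6 exons for AREG and 4619 bases in 5 exons for EREG. FPKM values, which divide reads by that length and by the total reads of the library, are lower by the same factors than values per base of coding transcript. The identifier of AREGB, ENSG00000205595, had 0 lines in GENCODE release 29, and RefSeq on GRCh38.p14 gives AREGB as a synonym of AREG. AREG and AREGB may therefore count transcripts of the same gene, and how reads were divided between them is uncertain.

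The promoter sequences of both genes are shown because AREG and EREG were higher in the same libraries. They are the 250 bases before each RefSeq start on GRCh38.p14, plus strand, with matches to the searched motifs in capitals.
AREG, chr4:74444886-74445135: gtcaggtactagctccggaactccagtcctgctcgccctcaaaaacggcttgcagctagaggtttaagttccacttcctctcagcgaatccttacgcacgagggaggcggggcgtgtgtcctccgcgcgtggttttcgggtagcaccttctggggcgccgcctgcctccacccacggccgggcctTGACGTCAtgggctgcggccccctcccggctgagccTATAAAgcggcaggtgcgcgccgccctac
EREG, chr4:74364895-74365144: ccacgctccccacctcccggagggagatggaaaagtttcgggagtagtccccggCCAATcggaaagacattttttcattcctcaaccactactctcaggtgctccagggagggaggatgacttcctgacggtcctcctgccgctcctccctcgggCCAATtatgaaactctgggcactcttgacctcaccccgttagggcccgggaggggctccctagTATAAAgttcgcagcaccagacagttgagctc
Both strands were searched for a TATA box, a CCAAT box, a cAMP response element and an AP-1 site, and the matches found do not overlap. The TATA box, spelled TATAAA, began 29 bases before the AREG start and 32 bases before the EREG start, and 10.7% of the 35116 promoter windows of this length held it. AREG held the response element, spelled TGACGTCA, from 65 to 58 bases before its start, a motif found in 1.65% of the windows. EREG held the CCAAT box beginning 196 and 95 bases before its start, against 32% of the windows with at least 1 match. The AP-1 site, spelled TGANTCA and present in 6.57% of the windows, had no match in these stretches of AREG or EREG. The matches describe letters in these windows and do not show that a factor bound there.

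All 3 members were higher with mitoxantrone, and in each the lowest mitoxantrone library stood above the highest DMSO library. AREG, the most abundant, had 1147, 1363 and 1198 reads in the mitoxantrone libraries, against 103, 106 and 58 reads in the DMSO libraries (replicates 1 to 3). Divided by the authors' size factors, these were 1297, 1420 and 1286 normalized reads with mitoxantrone and 88.5, 109 and 49.7 with DMSO. The mitoxantrone libraries lay close together, with a coefficient of variation of 5.59%, while that of the DMSO libraries was 36.6%, with replicate 3 the lowest. Mean AREG was 1334 ± 74.6 normalized reads with mitoxantrone and 82.5 ± 30.2 with DMSO (SD, n = 3 each), a 16.3-fold rise. The log2 fold change, with its standard error, was 4.03 ± 0.22 (adjusted p = 1.7e-08). Tests of single genes are edgeR quasi-likelihood tests, adjusted after Benjamini and Hochberg for all genes that the authors had tested. The lowest mitoxantrone library was 11.8 times the highest DMSO library. In bulk libraries, more RNA per cell and more cells that express a gene cannot be told apart.

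AREGB followed the same course at a lower level. It had 542, 496 and 477 reads with mitoxantrone, against 37, 37 and 26 reads with DMSO. As with AREG, DMSO replicate 3 was the lowest of the 6 libraries. Means were 547 ± 56.9 normalized reads with mitoxantrone and 30.7 ± 7.98 with DMSO (SD, n = 3 each). Its log2 fold change was 4.16 (SE 0.20), a 17.9-fold rise (adjusted p = 3.9e-09, edgeR).

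AREGB took between 25.9% and 32.1% of the amphiregulin reads in every library. The share was 32.1%, 26.7% and 28.5% with mitoxantrone, against 26.4%, 25.9% and 31% with DMSO. The 95% Wilson intervals ran from 24.7% to 34.4% over the mitoxantrone libraries and from 19.4% to 41.5% over the DMSO libraries, which cover counting error only. Those of mitoxantrone replicate 1 (29.9% to 34.4%) and replicate 2 (24.7% to 28.7%) did not overlap. Between these replicates the share thus differed by more than the intervals cover. Group means were 29.1% ± 2.76 with mitoxantrone and 27.8% ± 2.79 with DMSO (SD, n = 3 each), a difference of 1.33 percentage points (p = 0.5, two-sided exact permutation test, in which 3 against 3 cannot go below 0.1). The groups overlapped, and the difference was smaller than the spread within either. Because the division between the rows is uncertain, the rows were also added. The sum was 1882 ± 73.8 normalized reads with mitoxantrone and 113 ± 38.2 with DMSO (SD, n = 3 each), with a log2 fold change of 4.06 (SE 0.21) (adjusted p = 1.1e-08, edgeR).

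**Figure D1:**
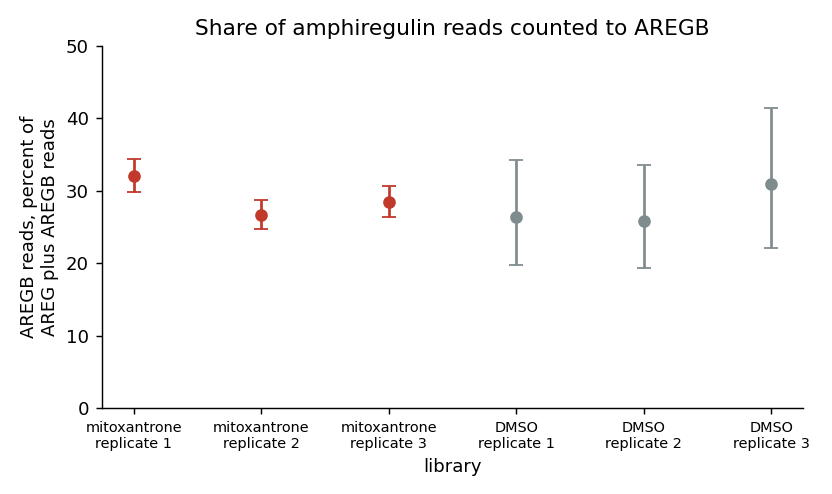
Share of AREG plus AREGB reads that were counted to AREGB (percent, y axis) in each library (x axis), mitoxantrone in red and DMSO in grey, with bars for 95% Wilson intervals. The libraries lie between 25.9% and 32.1%, and the intervals are narrower with mitoxantrone, where 1675 to 1859 reads were counted per library against 84 to 143 with DMSO.

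EREG was scarce in all libraries. It had 29, 39 and 56 reads with mitoxantrone, against 7, 2 and 2 reads with DMSO. DMSO replicate 1 held most of the DMSO reads, and mitoxantrone replicate 3 held the most of the treated libraries. Means were 44.5 ± 14.1 normalized reads with mitoxantrone and 3.26 ± 2.39 with DMSO (SD, n = 3 each). The log2 fold change was 3.70 (SE 0.46), a 13-fold rise (adjusted p = 3.0e-05, edgeR). From the summed reads alone, 124 with mitoxantrone and 11 with DMSO, the scaled ratio was 13.4 with a 95% exact interval of 7.24 to 27.6 that covers counting error only. Without DMSO replicate 1 the rise was 22.4-fold. The log2 fold change in the authors' deposited table was 2.64 (SE 0.35), smaller than the fitted value, while for AREG the authors' deposited table gave 3.85 and for AREGB 3.93. On the log2(FPKM + 1) scale the EREG change was 0.51, since its FPKM values lie below the added 1.

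These calls have to be read against the table they come from. All 3 members passed as higher and 0 as lower, where 56.7% of the listed genes passed as higher and 35.3% as lower, and the libraries did not overlap in that direction for 60.1% of the listed genes. By fitted log2 fold change AREGB ranked 32, AREG 39 and EREG 52 among the 1305 listed genes. By mean FPKM with mitoxantrone the ranks were 63 for AREG, 131 for AREGB and 906 for EREG, and by mean FPKM with DMSO they were 408, 612 and 1220. Of the listed genes 740 passed as higher and 461 as lower. Size factors taken from the listed genes alone gave 366 higher and 512 lower (TMM) or 219 higher and 512 lower (DESeq2). These factors centre a set selected as changed and mostly higher, and shifted the median log2 fold change of the listed genes by -0.69 and -0.99. Calls that end with them, here and below, partly reflect that shift. With them AREG stood at 3.33 and 3.03, AREGB at 3.47 and 3.17 and EREG at 3.02 and 2.72 on the log2 scale, all still past the threshold.

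**Figure D2:**
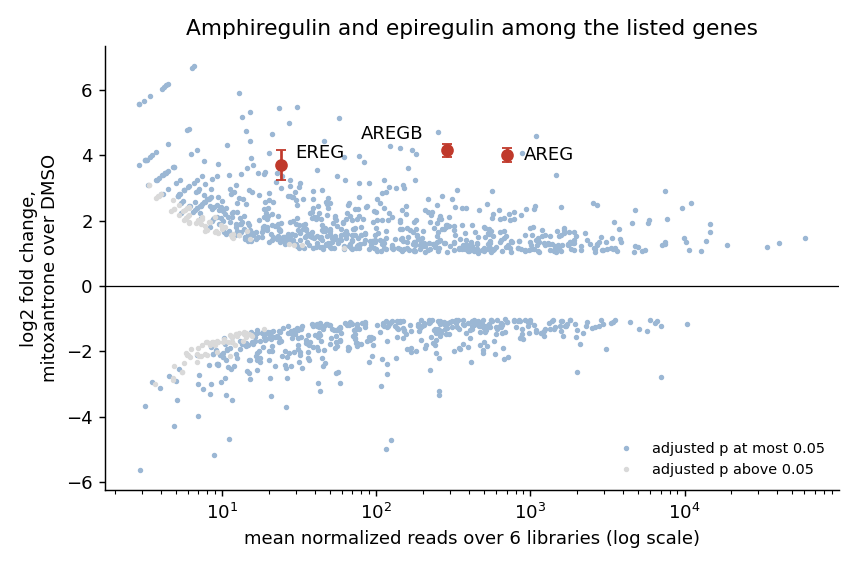
Log2 fold change, mitoxantrone over DMSO (y axis), against the mean normalized reads over the 6 libraries (x axis, log scale) for the 1305 listed genes, with blue points for an adjusted p of at most 0.05 and grey points for the others. AREG, AREGB and EREG are in red with bars for the standard error, at 4.03, 4.16 and 3.70, and the gap around 0 is the authors' fold threshold.

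Among the other members of the EGF ligand family, TGFA and EPGN were listed, 2 of the 9 genes looked for; the other 7 were not analysed here. TGFA encodes transforming growth factor alpha and EPGN encodes epigen, both ligands of the EGF receptor. TGFA had 29.3, 31.2 and 32.2 FPKM with mitoxantrone, against 12, 10.7 and 8.74 FPKM with DMSO. Its log2 fold change was 1.63 (SE 0.14) (adjusted p = 1.1e-06, edgeR). EPGN had 2.32, 2.15 and 1.75 FPKM with mitoxantrone, against 0.78, 0.21 and 0.37 FPKM with DMSO. DMSO replicate 1 was its highest DMSO library, and the groups did not overlap for either gene. The EPGN log2 fold change was 2.24 (SE 0.35) (adjusted p = 3.2e-04, edgeR), or 2.85 without DMSO replicate 1. With DESeq2 size factors over the listed genes its call ended, at 1.26 and an adjusted p of 0.069 (edgeR).

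Per length, the order of the listed ligand rows differed between the treatments. AREG and AREGB are ranked as separate rows here, though they may count the same gene. Added, they stood at 68.5 to 72 FPKM with mitoxantrone, above TGFA, and at 2.87 to 5.49 FPKM with DMSO, below it. How reads that match both rows were counted is not known, so the level of amphiregulin beside TGFA is uncertain. In all 3 mitoxantrone libraries AREG was first, followed by TGFA, AREGB, EPGN and EREG. In all 3 DMSO libraries TGFA was first, followed by AREG, AREGB, EPGN and EREG. No neighbours in either order overlapped between the libraries of a group. AREG averaged 49.7 ± 2.88 FPKM with mitoxantrone and 3.2 ± 1.09 FPKM with DMSO, and AREGB averaged 20.4 ± 1.69 FPKM with mitoxantrone and 1.2 ± 0.275 FPKM with DMSO (SD, n = 3 each). EREG averaged 0.48 ± 0.164 FPKM with mitoxantrone and 0.0367 ± 0.0289 FPKM with DMSO (SD, n = 3 each).

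The ratio of AREG to TGFA in FPKM was 1.61, 1.69 and 1.52 with mitoxantrone, against 0.296, 0.382 and 0.227 with DMSO. The log2 ratio was higher with mitoxantrone by 2.44 (p = 0.1, two-sided exact permutation test, the smallest p that 3 against 3 allows). AREG and AREGB together made up 66.4% to 68.5% of the summed FPKM of the 5 listed ligand rows with mitoxantrone, against 23.9% to 33.5% with DMSO. TGFA made up 28.9% to 31.2% with mitoxantrone and 65.1% to 72.8% with DMSO. EREG never exceeded 0.64% of the sum. These ligand comparisons were chosen after the values had been seen, and ligands outside the table are not in the sum. The uncertain counting of reads that match both AREG and AREGB bears on these ratios and shares too.

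**Figure D3:**
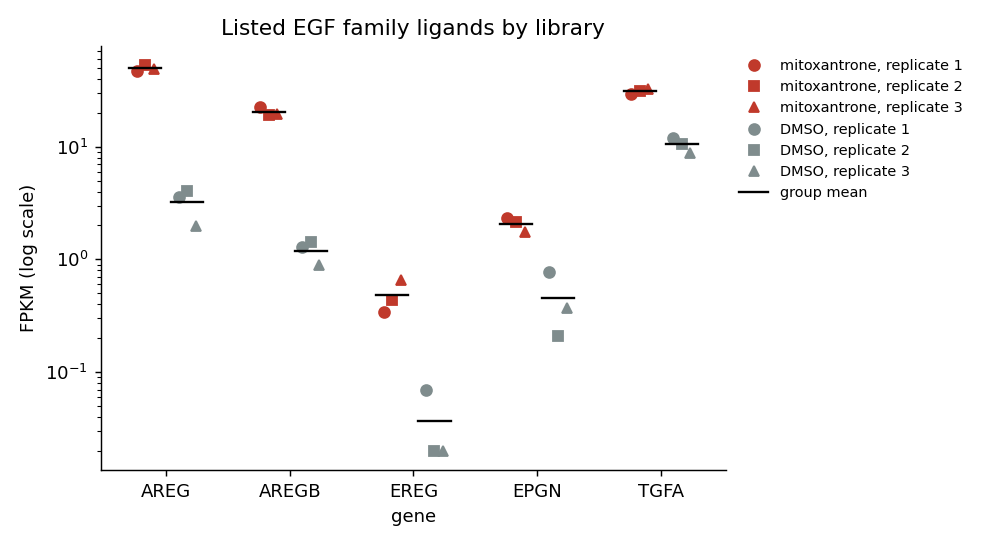
FPKM (y axis, log scale) of the 5 listed EGF family ligand rows (x axis) in each library, mitoxantrone in red to the left and DMSO in grey to the right, with a marker per replicate and a black line for the group mean. AREG lies at 47.1 to 52.8 FPKM with mitoxantrone, above TGFA at 29.3 to 32.2, while with DMSO it lies at 1.98 to 4.07, below TGFA at 8.74 to 12.

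The ratio between AREG and EREG varied widely between libraries. Per length AREG exceeded EREG 139, 120 and 74.3 times with mitoxantrone, against 50.7, 203 and 99 times with DMSO, in FPKM, which are rounded to 2 decimals. From normalized reads per kilobase, without that rounding, the ratios were 137, 121 and 74.2 with mitoxantrone, against 51, 184 and 101 with DMSO. The log2 ratio of EREG to AREG averaged -6.75 ± 0.47 with mitoxantrone and -6.65 ± 1.00 with DMSO (SD, n = 3 each), a difference of -0.09 (p = 1, two-sided exact permutation test). The groups overlapped, and with 2 reads of EREG in each of 2 DMSO libraries a difference of this size was not detectable at this depth.

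The members lie in a stretch of chromosome 4 that held other listed genes. Within 1 Mb of the AREG start the table listed 8 genes besides the members, all 8 higher. Their log2 fold changes ran from 1.13 to 5.46, with a median of 3.01. Over all 1305 listed genes the median was 1.26. That median takes in 793 higher and 512 lower genes, so the 2 medians do not compare the size of the rises. The authors' own log2 fold changes were smaller for PPBP, at 3.30, and PF4, at 1.21, than the fitted 5.46 and 2.77. EPGN lay nearest, 136.7 kb before AREG and 56.7 kb before EREG. The CXC chemokine genes lay farther, with CXCL2 at 348 kb, CXCL3 at 408.5 kb, PPBP at 458 kb, PF4 at 464 kb, CXCL1 at 576 kb and IL8, which encodes CXCL8, at 705 kb before AREG. Their fitted rises were 6.76-fold for CXCL2, 9.54-fold for CXCL3, 18-fold for CXCL1 and 15.6-fold for IL8. PPBP had 126 reads over the mitoxantrone libraries and 3 over the DMSO libraries, a scaled ratio of 50 with a 95% exact interval of 16.7 to 246 that covers counting error only. All 3 of the DMSO reads of PPBP were in replicate 2. Without that library its fitted log2 fold change was 8.54 in place of 5.46, a value that is set by the fit and is no bound, since the other DMSO libraries had 0 reads. PF4 had 25 reads over the mitoxantrone libraries and 4 over the DMSO libraries, and its call ended without mitoxantrone replicate 3 (adjusted p = 0.32) or without DMSO replicate 1 or 3 (adjusted p = 0.15 each, edgeR). The PF4 call also ended with TMM and DESeq2 factors over the listed genes (adjusted p of 0.24 and 0.64, edgeR) and with the DESeq2 Wald test (adjusted p = 0.093). RASSF6, a gene of the RAS association domain family, had a log2 fold change of 1.13, or 0.44 and 0.14 with TMM and DESeq2 factors over the listed genes, where it did not pass. Genes of the stretch that the table did not list were not analysed here, so that beyond the 8 listed it is not known how many neighbours moved.

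**Figure D4:**
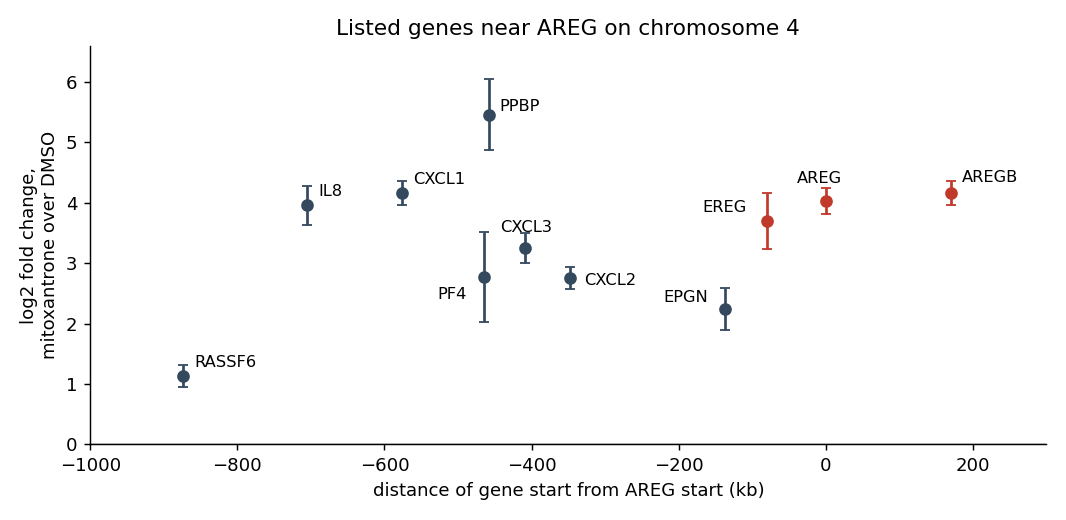
Log2 fold change, mitoxantrone over DMSO (y axis, bars for the standard error), of the listed genes whose start lies within 1 Mb of the AREG start (x axis, distance in kb from the deposited coordinates). The members are in red, and all 11 points lie above 0, from 1.13 for RASSF6 to 5.46 for PPBP, whose DMSO reads were all in replicate 2.

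The listed genes closest to AREG in pattern were found by the distance between log2 profiles over the 6 libraries, each centred on its DMSO mean. AREGB, which may count transcripts of the same gene, was nearest at 0.41. CXCL1 came next at 0.42, followed by SERPINB2 at 0.43, MMP1 at 0.52, KRT6B at 0.65 and IL8 at 0.68. Profiles centred in this way lie close when their fold changes are alike. On the log2 scale these were 4.17, 4.07, 4.04, 4.43 and 3.96 for the 5 genes from CXCL1 to IL8, beside 4.03 for AREG. Shared regulation was not tested. CXCL1 and IL8 encode neutrophil chemokines, SERPINB2 an inhibitor of plasminogen activators, MMP1 a collagenase and KRT6B a keratin. EREG ranked 25 by closeness to AREG. Closest to EREG were the rows RP11-221N13.3 at 0.69, LPPR5 at 0.72, AC139712.2 at 0.91, VSIG1 at 1.02 and A2ML1 at 1.10, and AREG ranked 43 from its side. Of these, RP11-221N13.3 had 1 read over the DMSO libraries, LPPR5 3, AC139712.2 4 and A2ML1 7, so their profiles rest on few reads.

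Further genes of the EGF receptor pathway were taken from 7 lists of 102 genes in all. Of these, 18 were listed (17.6%), 17 as higher and 1 as lower, where the authors' table listed 4.33% of the roughly 18310 genes they tested as higher and 2.8% as lower. All 17 passed as higher and the 1 as lower. The lists were drawn up with earlier results of these data known, so their counts are no independent support. The median log2 fold change of the 18 was 1.49, beside 1.26 over all listed genes. The latter takes in 793 higher and 512 lower genes, so these medians do not compare the size of the rises. With size factors taken from the listed genes 13 passed as higher with TMM factors, and 7 passed as higher and 1 as lower with DESeq2 factors.

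None of the 4 receptor genes (EGFR, ERBB2, ERBB3 and ERBB4) and none of the 11 receptor-level inhibitors was listed, and they were not analysed here. Of 12 genes for the shedding and trafficking of ligands, ADAM8 was listed. ADAM8, a membrane metalloprotease, had 5782 ± 150 normalized reads with mitoxantrone and 1736 ± 333 with DMSO (SD, n = 3 each), a 3.33-fold rise. Of 23 adaptor and kinase genes, SHC4 was listed. SHC4, an adaptor of receptor tyrosine kinases, had 129, 170 and 131 reads with mitoxantrone, against 8, 12 and 16 reads with DMSO. Its log2 fold change was 3.81 (SE 0.26), between those of EREG and AREG (adjusted p = 8.0e-08, edgeR).

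Of 16 feedback inhibitors of MAP kinase signalling 6 were listed, of which 5 rose and 1 fell. SPRY4, a Sprouty protein, rose 4.09-fold, and the phosphatase genes DUSP5, DUSP4 and DUSP1 rose 3.22-fold, 2.85-fold and 2.52-fold. With DESeq2 factors over the listed genes the calls of DUSP4 and DUSP1 ended, at log2 fold changes of 0.52 and 0.34 (adjusted p of 0.11 and 0.75, edgeR). SPRY3 had a log2 fold change of 1.26, with an adjusted p of 0.019, and its call ended without mitoxantrone replicate 3 at an adjusted p of 0.061 (edgeR). It also ended with TMM and DESeq2 factors over the listed genes, at log2 fold changes of 0.57 and 0.27 (adjusted p = 1 each, edgeR), and with limma on log2(FPKM + 0.1) and log2(FPKM + 1) (adjusted p of 0.13 and 0.062). DUSP9, a phosphatase of ERK, ran the other way. It had 47.7 ± 6.96 normalized reads with mitoxantrone and 221 ± 30.1 with DMSO (SD, n = 3 each), 4.63-fold lower with mitoxantrone (adjusted p = 8.3e-07, edgeR).

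Of 27 transcripts known to respond to ERK signalling 8 were listed, and all 8 rose, by 1.11 to 1.92 on the log2 scale. Of all 1305 listed genes 793 were higher, and among the 1305 the 8 ranked from 341 (PHLDA1) to 750 (CCND1) by log2 fold change. PHLDA1, an early response gene, had the largest rise of these, at 9141 ± 160 normalized reads with mitoxantrone and 2417 ± 630 with DMSO (SD, n = 3 each). HMGA2, a chromatin protein gene, rose 3.41-fold, LIF, a cytokine gene, 2.62-fold, and FOS, a subunit of the AP-1 factor, 2.78-fold. The lowest were ETV5, an ETS factor gene, at 1.15 and CCND1, the gene of cyclin D1, at 1.11, on the log2 scale. IER3 stood at 1.34 and EPHA2 at 1.29 on that scale. With TMM factors over the listed genes the calls of IER3, ETV5 and CCND1 ended (adjusted p of 0.079, 0.37 and 0.36, edgeR). With DESeq2 factors over the listed genes those of FOS, LIF and EPHA2 ended too (adjusted p of 0.8, 0.33 and 0.97, edgeR). PHLDA1 and HMGA2, with the largest rises of the 8, were the 2 that passed under both. Both sets of factors lower the fold changes of the listed genes, so small rises lose their calls first. In the main fit the rises of these genes were smaller than those of AREG, AREGB and EREG, whose lowest log2 fold change was 3.70. For EREG this depends on the scale. On log2(FPKM + 1) EREG stood at 0.51, below all 8 genes, which ran from 0.91 (ETV5) to 1.83 (PHLDA1). AREG at 3.63 and AREGB at 3.29 stayed above them.

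**Figure D5:**
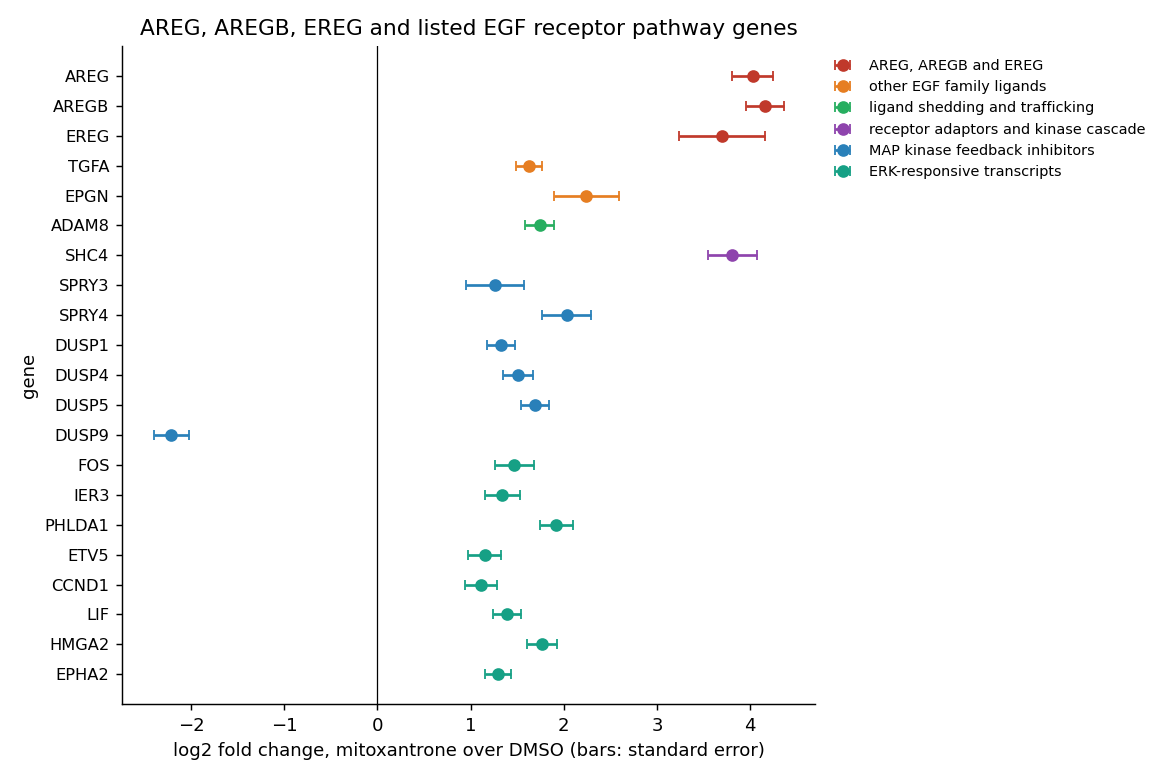
Log2 fold change, mitoxantrone over DMSO (x axis, bars for the standard error), of AREG, AREGB and EREG and of the 18 listed pathway genes (y axis), coloured by gene list. AREG, AREGB, EREG and SHC4 lie at 3.70 to 4.16, the other higher genes at 1.11 to 2.24, and DUSP9 at -2.21.

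The libraries held 14762544 to 15663328 reads with mitoxantrone and 15789357 to 17817780 with DMSO, as solved from the deposited FPKM values. The listed genes took 6.08% to 6.20% of the reads with mitoxantrone and 3.97% to 4.04% with DMSO. Of 7 epithelial markers KRT8 and KRT18 were listed, both of them keratin genes of simple epithelium, with a summed level of 1833 to 2191 FPKM in the mitoxantrone libraries and 742 to 957 FPKM in the DMSO libraries. With TMM and DESeq2 factors over the listed genes KRT18 did not pass, at log2 fold changes of 0.51 and 0.20. KRT8 passed with these TMM factors but not with the DESeq2 factors, at 0.80 and 0.49 (adjusted p of 0.0097 and 0.36, edgeR). Of 8 markers of other cell types COL1A1 and CD14 were listed, both lower (CD14 not without mitoxantrone replicate 3 or DMSO replicate 3, at an adjusted p of 0.062 and 0.083, edgeR), with a summed level of 1.56 to 1.81 FPKM with mitoxantrone and 3.74 to 5.05 FPKM with DMSO. The other markers were not analysed here, and the part of these genes in the results for the members was not tested.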

How the data were processed

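The authors' deposited table was the only file. It holds raw read counts and FPKM values per gene and library, per the file headers. It also holds, per the file headers, the mean normalized count (a signal value) and the authors' log2 fold change, its standard error and Wald statistic (score values), p-value and adjusted p-value. Tools named in the submitters' processing notes, without role or order, are Cufflinks 2.2.1, cutadapt 1.9.1, DESeq2, HISAT2 2.0.1 and HTSeq 0.6.1. The genome build and the strandedness are not stated in the labels, so overlapping and antisense transcripts cannot be told apart.

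Size factors were solved from the deposited counts and mean normalized counts (largest relative error 5e-10), library totals from the deposited FPKM (100% of values given back within 0.006), and the number of genes the authors tested (18310, between 18301 and 18318) from their p-values. The main test of the counts was edgeR's quasi-likelihood F test (R 4.3.3 with edgeR 4.0.16 and limma 3.58.1) over all 1305 listed genes, without a filter, with Benjamini-Hochberg adjustment for 18310 tests at a threshold of 0.05 and ranks among the listed genes. Standard errors are the log2 fold change over the root of the F statistic. Dispersions fitted to selected genes tend to be too low. Single values per library were compared with exact permutation tests (scipy 1.17.1). No libraries of a group were duplicates, with a chi-square per gene of 2.91 to 25.4 between replicates.

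The members and gene lists were chosen with earlier results of these data known. From the pathway lists 1 gene is not reported here and was left out of their counts. Genes were named by rule: the members, the listed genes of the 7 pathway lists, listed genes within 1 Mb of AREG, and the 5 listed genes nearest to AREG and to EREG over log2(normalized count + 1). Alternatives were TMM and DESeq2 factors (DESeq2 1.42.0), library totals, the DESeq2 test, a minimum mean of 10 reads, limma on log2(FPKM + 0.1) and log2(FPKM + 1), a replicate block, and leaving out each library. Promoter sequences are from RefSeq on GRCh38.p14, matched by symbol for AREG and EREG.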

Additional observations from a re-analysis of the deposited data

How the results depend on the processing

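AREG, AREGB, EREG and the sum of AREG and AREGB stayed higher and past the threshold under all alternatives, with adjusted p-values up to 1.1e-05 for AREG, 4.7e-06 for AREGB and 0.0028 for EREG. Leaving out each library gave log2 fold changes of 3.76 to 4.27 for AREG, 3.97 to 4.33 for AREGB and 3.37 to 4.48 for EREG. Listed genes called higher numbered 366 with TMM and 219 with DESeq2 factors taken from the listed genes, and pathway genes called higher numbered 7 with DESeq2 factors; these factors centre a set selected as changed and mostly higher. Differences that did not pass changed sign: the AREGB share was -0.172 percentage points without mitoxantrone replicate 1 (-0.172 to 2.93 over the libraries left out), and the log2 ratio of EREG to AREG was 0.0935 without mitoxantrone replicate 1 and 0.404 without DMSO replicate 1 (-0.599 to 0.404). The AREG to TGFA difference ran from 2.25 to 2.63. Deviations of same-numbered libraries correlated at -0.133, -0.0752 and 0.0716 for replicates 1 to 3, and those of differently numbered libraries at -0.155 to 0.215. No pairing by replicate number was seen, though deviations from means of 3 libraries cannot exclude it. With the replicate block AREG had a log2 fold change of 4.06, AREGB 4.17 and EREG 3.69, and 17 pathway genes were called higher and 1 lower. The depth of 2 to 7 EREG reads per DMSO library limits what can be said of its baseline.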
